A study of Mus musculus with 6 samples.

Results

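The genes described here encode the enzymes that carry glucose carbon through glycolysis, the pentose phosphate pathway, pyruvate oxidation and the citrate cycle. They were taken by symbol from a list of 46 genes, 42 of which could be matched to a probe set with a single gene symbol, out of 18193 genes named on the array. Gpi1, Pfkfb1, Eno1 and G6pdx were not analysed here. For each gene the brightest probe set across all 6 arrays was read, and cross-hybridising probe sets (suffix x_at) were passed over where another existed. For Aldoa every probe set is of that kind. All 42 passed the filter on dim probe sets and were tested among 11201 genes.

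RNA came from epididymal white adipose tissue, a visceral fat pad, of male mice aged 10 weeks. The 3 Pparg ldi/+ mice carried 1 copy of the ldi allele of Pparg, which the labels connect with lipodystrophy, and were compared with 3 litter-matched wild-type mice. Both groups were on a mixed C57BL6;129Sv background, and each mouse had its own Affymetrix MOE430v2.0 array. The Pparg product is a nuclear receptor needed to form fat cells.

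Fat cells take up glucose under insulin and send it down glycolysis to pyruvate. Part of the pyruvate is carboxylated or oxidised in mitochondria, and citrate exported from them supplies acetyl-CoA for fatty acid synthesis. The pentose phosphate pathway and malic enzyme supply the NADPH that this synthesis uses. Isozymes of the same step differ in the cell types that use them, so that hexokinase 3, for example, is known from white blood cells and hexokinase 2 from muscle and fat.

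Signals are MAS5 intensities scaled to a common trimmed mean, and differences are Pparg ldi/+ minus wild type of log2(signal + 32); this offset shrinks the differences of dim genes. Rose and fell refer to a limma adjusted p below 0.05 over all genes tested. Before scaling, trimmed means ran from 201 to 236. Pparg itself measured 1732, 1709 and 1901 in Pparg ldi/+ fat, against 4378, 4440.3 and 4998 in wild-type fat, a log2 difference of -1.35 (limma adjusted p = 1.04e-05).

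The pads also differed in the markers of their cell types. All 12 macrophage markers rose, with a summed signal of 99296 to 101917 in Pparg ldi/+ fat and 39843 to 50962 in wild-type fat. All 7 adipocyte markers fell, with sums of 35903 to 41956 in Pparg ldi/+ fat and 107441 to 121360 in wild-type fat, and 5 of 6 endothelial markers and all 4 mesothelial markers fell too. Markers of the epididymal epithelium summed to 17555 and 24796 on Pparg ldi/+ arrays 1 and 2, to 616 on array 3, and to between 433 and 494 on the wild-type arrays. Germ cell markers summed to 4935 on Pparg ldi/+ array 2, against 376 and 403 on the other Pparg ldi/+ arrays and 210 to 709 on the wild-type arrays. In such bulk samples fewer cells of a type and less RNA per cell cannot be told apart.

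**Figure D1:**
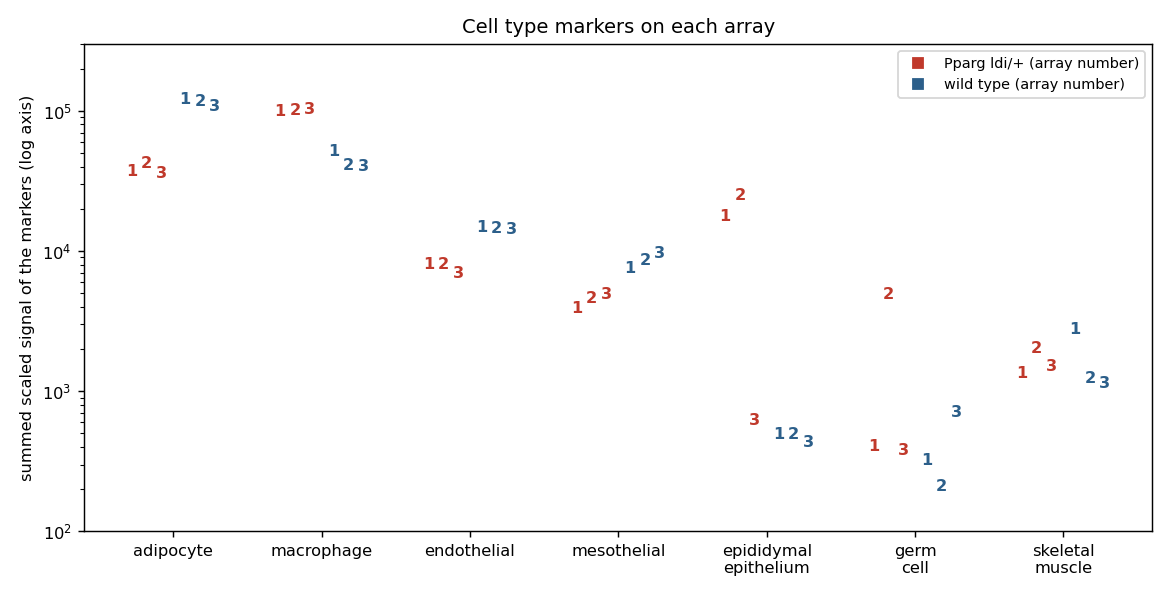
Summed scaled signal (log axis) of 7 marker lists on each array, with the array number as the symbol, Pparg ldi/+ in red and wild type in blue. Macrophage sums are higher and adipocyte, endothelial and mesothelial sums lower on all 3 Pparg ldi/+ arrays, while epididymal markers are high on Pparg ldi/+ arrays 1 and 2 only.

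Genes of the glycolysis and lactate lists rose more often than they fell. Genes of the pyruvate entry and citrate cycle lists fell more often than they rose. Of the 42 genes, 10 rose and 10 fell, together 47.6%, where 32.7% of all genes tested were called. The shares were 23.8% higher and 23.8% lower, against 16.3% and 16.4% of all genes. Among the 16 glycolytic and lactate genes, 9 rose and 2 fell, and among the 23 genes of pyruvate entry and the citrate cycle, 1 rose and 8 fell. These 23 include the Pdk kinases, which switch pyruvate dehydrogenase off, the NADP isocitrate dehydrogenases and the cytosolic Mdh1. The 8 falls depended on the arrays and the processing: they were 5 without Pparg ldi/+ array 1, 2 or 3, 3 with unscaled values, 4 with the mean of a gene's sets, and 2 of 23 (8.7%) on Pparg ldi/+ array 3 alone, where 7.94% of all genes fell. Falls over all genes tested also became fewer, from 1837 to 1447, 1570 and 1458 without Pparg ldi/+ array 1, 2 or 3. They numbered 1331 with unscaled values and 1553 with the mean of sets. Without Aldoc, which was tested only through its high Pparg ldi/+ values, 9 of 41 genes rose, 8 of them among 15 glycolytic and lactate genes. The sizes were not unusual: the median absolute log2 difference was 0.251 over the 42 genes and 0.249 over all genes tested. The signed medians were -0.066 and -0.0043. The groups did not overlap for any of the 20 called genes, nor for 5 others, in all 59.5% of the 42, while 47.6% of all genes tested did not overlap. Pparg ldi/+ arrays were all above wild type for 10 of the 42 and all below for 15, against 23.6% and 24.0% of all genes. All these differences stand beside the higher macrophage and lower adipocyte marker sums given above, whose part in them was not tested.

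**Figure D2:**
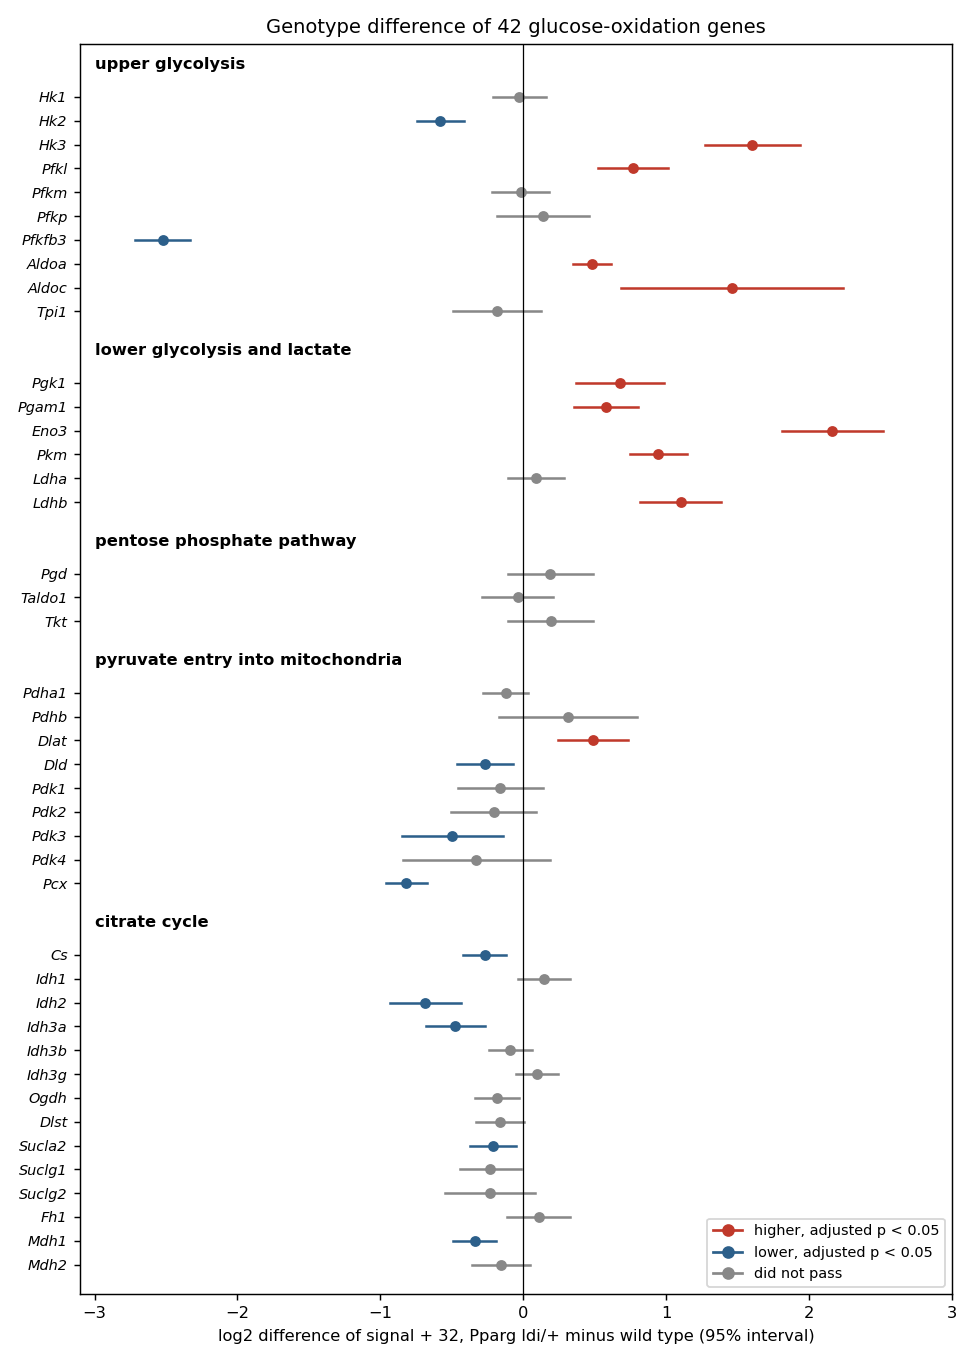
Log2 difference (Pparg ldi/+ minus wild type) of each of the 42 genes with its 95% confidence interval from limma, by pathway step. Red points rose, blue points fell and grey points did not pass; Pfkfb3 at -2.52 and Eno3 at 2.16 lie farthest from 0.

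The promoters of the 2 genes with the largest falls and the 2 with the largest rises among those called are shown here, to set beside their signals. Each window runs from 250 bases before to 50 after a RefSeq transcription start of assembly GRCm38.p6, 5′ to 3′ on the gene's strand. Capitals mark ACGTG, the core of the hypoxia response element, and AGGTCA, the hexamer bound by nuclear receptors, on either strand; CACGTG holds ACGTG on both strands.
Pfkfb3: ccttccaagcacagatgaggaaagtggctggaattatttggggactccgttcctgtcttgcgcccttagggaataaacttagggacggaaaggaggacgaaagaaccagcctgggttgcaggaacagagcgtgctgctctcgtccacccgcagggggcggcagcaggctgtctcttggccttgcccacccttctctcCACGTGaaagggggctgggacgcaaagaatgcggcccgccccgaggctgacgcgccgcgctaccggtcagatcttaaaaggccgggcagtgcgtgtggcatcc
Pcx: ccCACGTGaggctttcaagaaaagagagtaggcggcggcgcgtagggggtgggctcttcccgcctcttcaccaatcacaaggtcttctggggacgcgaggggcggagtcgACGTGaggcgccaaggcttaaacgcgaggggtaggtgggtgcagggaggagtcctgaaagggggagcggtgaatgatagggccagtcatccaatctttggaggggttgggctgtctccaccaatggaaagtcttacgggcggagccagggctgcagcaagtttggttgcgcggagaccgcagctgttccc
Eno3: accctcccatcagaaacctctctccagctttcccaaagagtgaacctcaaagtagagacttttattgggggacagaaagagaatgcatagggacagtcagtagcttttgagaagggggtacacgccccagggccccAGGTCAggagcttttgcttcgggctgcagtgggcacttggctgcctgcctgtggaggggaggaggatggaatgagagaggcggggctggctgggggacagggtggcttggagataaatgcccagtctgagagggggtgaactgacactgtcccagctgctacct
Hk3: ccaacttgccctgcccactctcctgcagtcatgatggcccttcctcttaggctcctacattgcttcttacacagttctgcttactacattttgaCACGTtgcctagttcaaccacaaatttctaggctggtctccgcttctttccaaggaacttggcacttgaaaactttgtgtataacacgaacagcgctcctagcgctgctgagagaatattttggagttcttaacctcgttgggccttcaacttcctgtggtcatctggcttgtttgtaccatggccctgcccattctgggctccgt
The Pfkfb3 window lies at chr2:11502041-11502340 on the minus strand and the Pcx window at chr19:4510222-4510521 on the plus strand, each the window with more matches of the 2 that RefSeq gives for its gene. The Eno3 window is chr11:70656926-70657225 on the plus strand and the Hk3 window chr13:55021336-55021635 on the minus strand.

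RefSeq windows were found for 45 of the 46 listed genes, 70 windows in all. ACGTG occurred in 27 of these 70, or 38.6%, and in 19.6% of all 32851 promoter windows. AGGTCA occurred in 14 of the 70, or 20.0%, and in 16.3% of all windows. A direct repeat of AGGTCA with 1 base between the copies, the element read by PPAR with its partner RXR, was in none (0) of the 70 and in 13 of all windows. ACGTG was present for 6 of the 10 genes that rose, 5 of the 9 genes with a window that fell and 7 of the 22 that did not pass. A gene counts here if any of its windows holds a match, so these counts cannot be set against the shares of windows. GGGCGG, the GC-rich Sp1 box, was in 57.1% of the 70 and 35.7% of all. A match describes these letters and is not evidence that a factor binds there.

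Glycolysis commits glucose through hexokinase and phosphofructokinase, and here 4 of 10 genes of the upper steps rose and 2 fell, against 16.3% and 16.4% of all genes. The largest difference among all 42 genes was the fall of Pfkfb3, whose enzyme makes the sugar bisphosphate that activates phosphofructokinase. Its signals were 1701, 1803 and 1869.9 in Pparg ldi/+ fat, against 10861, 11117 and 9434 in wild-type fat. The groups lay far apart, with means of 1791 ± 84.9 in Pparg ldi/+ fat and 10470.4 ± 907 in wild-type fat (SD, n = 3 each). The log2 difference was -2.52 (95% confidence interval -2.71 to -2.33, limma adjusted p = 6.86e-07), a fall of 5.75-fold, and the other probe set of Pfkfb3 differed by -2.71. Of all 11201 genes tested, Pfkfb3 ranked 37 from the largest fall. The sister gene Pfkfb4, whose enzyme does the same chemistry, rose by 0.50 (limma adjusted p = 0.0305), and Pfkfb2 had a difference of -0.33 that did not pass. Tigar, whose product breaks that activator down, rose by 0.69 (limma adjusted p = 0.00607).

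Hexokinase genes went apart. Hk3, the isozyme of white blood cells, gave 809, 738 and 967 in Pparg ldi/+ fat, against 231, 297 and 236 in wild-type fat, and rose 3.03-fold (log2 1.60, SE 0.145, limma adjusted p = 7.6e-05). Its cross-hybridising probe set differed by 1.84. Hk2, the isozyme that follows insulin in fat and muscle, gave 1600.0, 1586 and 1556 in Pparg ldi/+ fat, against 2373, 2326 and 2438 in wild-type fat, and fell 1.49-fold (log2 -0.58, SE 0.0716, limma adjusted p = 0.000415). Every Pparg ldi/+ array lay above wild type for Hk3 and below it for Hk2. Hk1, the broadly expressed isozyme, had a difference of -0.029 (95% confidence interval -0.22 to 0.16), and its other probe set differed by 0.14. The higher Hk3 goes with the higher macrophage markers given above, and the lower Hk2 with the lower adipocyte markers; the part of cell makeup in either was not tested.

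Phosphofructokinase has a liver, a muscle and a platelet type of subunit. The liver-type gene Pfkl had signals of 6946, 5903 and 6993 in Pparg ldi/+ fat, against 4122, 3354 and 4196 in wild-type fat, and rose 1.7-fold (log2 0.76, limma adjusted p = 0.000845). Its 2 other probe sets differed by 0.92 and 0.15. The muscle-type gene Pfkm and the platelet-type gene Pfkp overlapped between genotypes, at -0.020 (95% confidence interval -0.22 to 0.18) and 0.14 (95% confidence interval -0.19 to 0.46).

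Of the aldolase genes, Aldoa, which serves most tissues, was among the brightest of the 42, at 23246 ± 121 in Pparg ldi/+ fat and 16694 ± 691 in wild-type fat (SD, n = 3 each). It rose by 0.48 (limma adjusted p = 0.000404), and its 4 other probe sets differed by 0.44 to 1.03. Aldoc, the brain type, was dim, with 399.5, 263 and 272 in Pparg ldi/+ fat, against 42.6, 95.5 and 163 in wild-type fat. It rose by 1.46 (SE 0.34, limma adjusted p = 0.0109). Its wild-type mean lay below the log2 filter of 7.46, so Aldoc passed the filter through its Pparg ldi/+ values, the only 1 of the 42 to do so. Tpi1, the triose phosphate isomerase gene, had a difference of -0.19 that did not pass, and without wild-type array 3, the lowest of its group, it passed at -0.36.

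**Figure D3:**
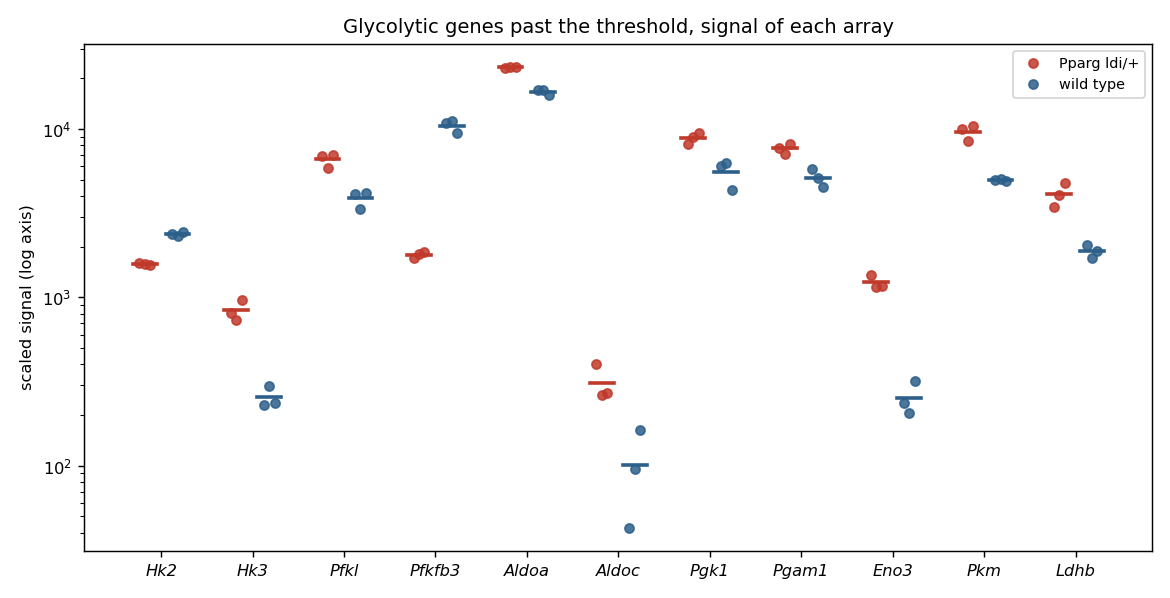
Scaled signal (log axis) of the 11 glycolytic and lactate genes past the threshold on each array, Pparg ldi/+ in red on the left and wild type in blue on the right, with bars at the group means. No gene overlaps between genotypes, and Pfkfb3 and Hk2 are the genes lower in Pparg ldi/+ fat.

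On the list of lower glycolysis and lactate 5 of 6 genes tested rose, where 16.3% of all genes rose, and the median log2 difference was 0.81. This list holds the lower steps of glycolysis, which return ATP, and the lactate dehydrogenase genes Ldha and Ldhb. Ldha was the gene that did not pass. Eno3, the enolase of muscle, had the largest rise of the 42 genes, with 1357, 1156 and 1169 in Pparg ldi/+ fat, against 235, 206 and 318 in wild-type fat. All Pparg ldi/+ arrays exceeded all wild-type arrays several times over. The log2 difference was 2.16 (95% confidence interval 1.81 to 2.51, limma adjusted p = 2.19e-05), a rise of 4.47-fold, and Eno3 ranked 76 from the largest rise of all genes tested. Of the 6 skeletal muscle markers, 3 were tested and 1 rose, Pvalb, at 1.20. Its wild-type log2 mean of 7.05 lay below the filter on dim probe sets. Pvalb, like Aldoc, thus passed that filter only through its Pparg ldi/+ values. Ckm, the muscle creatine kinase gene, averaged 184 ± 13.2 in Pparg ldi/+ fat and 187 ± 11.7 in wild-type fat (SD, n = 3 each). It was dim too, with log2 means of 7.75 in Pparg ldi/+ fat and 7.77 in wild-type fat, close to the filter. The muscle marker sum was 1329 to 2028 in Pparg ldi/+ fat and 1142 to 2754 in wild-type fat, so the groups overlapped there. The part of muscle or macrophage RNA in these differences was not tested.

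Pkm encodes the pyruvate kinase of most tissues other than liver and red cells. It gave 10062, 8435 and 10432 in Pparg ldi/+ fat, against 4953, 5081 and 4899 in wild-type fat, and rose 1.92-fold (log2 0.94, limma adjusted p = 8.63e-05). The wild-type arrays were close together and all Pparg ldi/+ arrays lay well above them. Pgk1, phosphoglycerate kinase, gave 8098, 8938 and 9444 in Pparg ldi/+ fat, against 6036, 6318 and 4367 in wild-type fat (log2 0.68, limma adjusted p = 0.00527), and 2 further probe sets differed by 0.59 and 0.78. Pgam1, phosphoglycerate mutase, gave 7702, 7145 and 8155 in Pparg ldi/+ fat, against 5761, 5137 and 4538 in wild-type fat (log2 0.58, limma adjusted p = 0.00215). Both genes rose without overlap. Eno2, the neuronal enolase gene outside the list of 42, was higher on every Pparg ldi/+ array but did not pass (0.70, limma adjusted p = 0.0775).

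Lactate dehydrogenase is built from subunits that Ldha and Ldhb encode, the first known from muscle and the second from heart. Ldhb gave 3449, 4056 and 4793 in Pparg ldi/+ fat, against 2052, 1719.7 and 1877 in wild-type fat, and rose 2.14-fold (log2 1.10, SE 0.124, limma adjusted p = 0.000247). Its 3 other probe sets differed by 1.07 to 1.50. Ldha, at 15316 ± 361 in Pparg ldi/+ fat and 14439.8 ± 1622 in wild-type fat (SD, n = 3 each), had a difference of 0.091 (95% confidence interval -0.11 to 0.29). The lactate and pyruvate carrier genes Slc16a1 and Slc16a3 did not pass, at 0.19 and 0.26.

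Of the 3 listed pentose phosphate genes tested, Pgd, Taldo1 and Tkt, limma called 0, where 32.7% of all genes tested were called. At an unadjusted p below 0.05 the number was also 0 of 3. Pgd, which makes NADPH from phosphogluconate, gave 9328, 7694 and 8716 in Pparg ldi/+ fat and 6513, 9208 and 7037 in wild-type fat (log2 0.19, 95% confidence interval -0.11 to 0.49). Tkt, the transketolase gene, gave 12489, 9604 and 11453 in Pparg ldi/+ fat and 8254, 11345 and 9861 in wild-type fat (log2 0.19, 95% confidence interval -0.11 to 0.49). In both the groups overlapped, with wild-type array 2 the highest of its group, and without that array Pgd passed at 0.34. Taldo1, the transaldolase gene, was at -0.041. A dim probe set of Tkt differed by 1.03, and its brightest, a cross-hybridising set, by 0.049. Among 6 other genes of the pathway 4 were tested. Pgls, the lactonase gene, rose by 0.44 and Rpia, ribose phosphate isomerase, by 0.58. H6pd, the glucose dehydrogenase of the endoplasmic reticulum, fell by 0.56 on the log2 scale (limma adjusted p = 0.0103), and Rpe, the epimerase gene, was at -0.15.

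Pyruvate enters mitochondrial metabolism through pyruvate carboxylase or the pyruvate dehydrogenase complex. Of 9 genes at this step 1 rose and 3 fell, against 16.3% and 16.4% of all genes. The 9 include the kinase genes Pdk1, Pdk2, Pdk3 and Pdk4, whose products switch the complex off, and Pdk3 was among those that fell, with Pcx and Dld. The falls numbered 1 without Pparg ldi/+ array 1 or 3 or wild-type array 2 or 3, 2 without either of the remaining arrays, and 1 with unscaled values or no filter. Pcx, which encodes pyruvate carboxylase, gave 6828, 6491 and 6555 in Pparg ldi/+ fat, against 11657, 12205 and 11289 in wild-type fat. The log2 difference was -0.82 (95% confidence interval -0.96 to -0.68, limma adjusted p = 3.25e-05). The array also carries 4 control probe sets along the pyruvate carboxylase transcript, which were not part of the test. The control at the 5' end gave 1445, 1347 and 1651 in Pparg ldi/+ fat, against 3400.4, 3613 and 2790 in wild-type fat, a log2 difference of -1.12. The control at the 3' end gave 3688, 3634 and 3583 in Pparg ldi/+ fat, against 7267, 7426 and 6943 in wild-type fat, a difference of -0.98. The 2 middle controls differed by -1.10 and -1.12. All 5 probe sets were thus lower on every Pparg ldi/+ array, along the length of the transcript. The 3'/5' control ratio was 2.17 to 2.70 in Pparg ldi/+ fat and 2.06 to 2.49 in wild-type fat, so the groups overlapped in it.

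**Figure D4:**
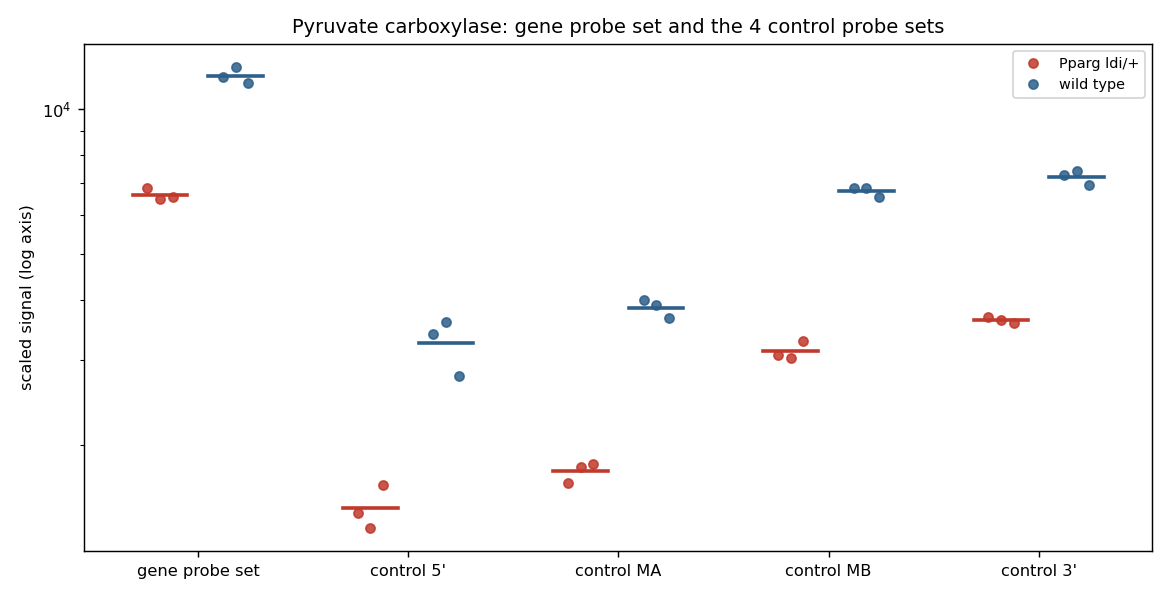
Scaled signal (log axis) of the probe set read for Pcx and of the 4 control probe sets for pyruvate carboxylase on each array, Pparg ldi/+ in red on the left and wild type in blue on the right, with bars at the group means. All 5 are lower on each of the 3 Pparg ldi/+ arrays, with log2 differences of -0.82 to -1.12.

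The pyruvate dehydrogenase complex did not move as a whole. Dlat, its acetyltransferase core, gave 2935, 3099 and 3033 in Pparg ldi/+ fat, against 2089, 2517 and 1881 in wild-type fat, and rose by 0.49 (limma adjusted p = 0.00848). Its 2 other probe sets differed by 0.33 and 0.11. Pdhx, outside the list of 42, anchors dihydrolipoamide dehydrogenase to that core. It gave 2498, 2647 and 2389 in Pparg ldi/+ fat, against 933, 1232 and 874 in wild-type fat, and rose 2.46-fold (log2 1.30, limma adjusted p = 0.000118), the largest rise among the genes of these pathways outside the list. Dld, dihydrolipoamide dehydrogenase, fell by 0.27 on the log2 scale (limma adjusted p = 0.0401), and a very dim second probe set differed by 0.51. Pdha1 and Pdhb, which encode the decarboxylating subunits, did not pass, at -0.12 and 0.31. Pdhb measured 8316 on wild-type array 2 and 4478 and 5013 on the other wild-type arrays, and without array 2 it passed at 0.58.

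Of the kinases that switch the complex off, Pdk3 fell by 0.50 on the log2 scale (limma adjusted p = 0.0374), while Pdk1, Pdk2 and Pdk4 did not pass, at -0.16, -0.21 and -0.33. Pdk4, which responds to fatty acids and fasting, varied widely, with 769.9, 1222 and 1000.4 in Pparg ldi/+ fat and 1667, 902 and 1263 in wild-type fat. Of the phosphatase genes that switch the complex back on, the regulatory subunit gene Pdpr fell by 0.40 (limma adjusted p = 0.014) and Pdp1 and Pdp2 did not pass. The calls of Dld and Pdk3 were marginal. That of Dld ended without Pparg ldi/+ array 1, 2 or 3 (-0.30, -0.23 and -0.28) and without wild-type array 2 or 3 (-0.21 and -0.26). That of Pdk3 ended without Pparg ldi/+ array 1 or 3 (-0.35 and -0.54) and without wild-type array 1, 2 or 3 (-0.53, -0.43 and -0.53).

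The citrate cycle list also holds the NADP isocitrate dehydrogenases Idh1 and Idh2 and the cytosolic Mdh1, but no succinate dehydrogenase gene. Of its 14 genes 5 fell and none rose (0), against 16.4% and 16.3% of all genes. Those that fell were Cs, Idh3a, Sucla2, Idh2 and Mdh1. The falls numbered 2 with unscaled values, 2 with the mean of probe sets, 1 on Pparg ldi/+ array 3 alone, and 3 to 6 with each array left out in turn, lowest without Pparg ldi/+ array 2. The median log2 difference was -0.20, and 11 of the 14 differences were below 0. No overlap, with Pparg ldi/+ below, was seen for 9 of the 14, against 24.0% of all genes. At an unadjusted p below 0.05 the number higher was also 0. The differences were small: none of these 14 genes reached a log2 difference of 1. The adipocyte marker sum was lower in Pparg ldi/+ fat as well, and the part of cell makeup in these falls was not tested.

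Isocitrate dehydrogenases carried the largest falls. Idh2, the mitochondrial enzyme that makes NADPH, gave 2301, 2360.0 and 2335 in Pparg ldi/+ fat, against 3536, 3378 and 4486 in wild-type fat, and fell 1.61-fold (log2 -0.69, limma adjusted p = 0.00152). A dim second probe set differed by -0.098. Idh3a, the catalytic subunit of the NAD-dependent enzyme, gave 5818, 6613 and 5884 in Pparg ldi/+ fat, against 8033, 9528 and 7982 in wild-type fat (log2 -0.48, limma adjusted p = 0.00411). Its 3 dimmer probe sets differed by -0.28 to -0.0068. The other subunit genes of that enzyme, Idh3b and Idh3g, did not pass, at -0.090 and 0.094. Idh1, the cytosolic NADPH-making enzyme, was at 0.15 (95% confidence interval -0.035 to 0.33), with a second probe set at 0.14.

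Cs, citrate synthase, fell by 0.27 on the log2 scale (limma adjusted p = 0.0133), with 6133, 5706 and 6005 in Pparg ldi/+ fat, against 6914, 7419 and 7197 in wild-type fat. Its 2 other probe sets differed by -0.38 and -0.25. Mdh1, the cytosolic malate dehydrogenase, fell by 0.34 (limma adjusted p = 0.00418), and its mitochondrial counterpart Mdh2 was at -0.16. Sucla2, the ATP-forming succinyl-CoA ligase subunit, fell by 0.21 (limma adjusted p = 0.048). Ogdh, Dlst, Suclg1 and Suclg2, of the oxoglutarate dehydrogenase complex and succinyl-CoA ligase, were at -0.19, -0.16, -0.23 and -0.23, and Fh1, fumarase, at 0.11. None of these passed. The call of Cs ended without Pparg ldi/+ array 2 (-0.24). That of Sucla2 ended without Pparg ldi/+ array 1, 2 or 3 (-0.22, -0.22 and -0.20) and without wild-type array 1 or 2 (-0.18 and -0.20). Suclg1 passed without wild-type array 3 (-0.29) and Suclg2 without wild-type array 2 (-0.39).

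**Figure D5:**
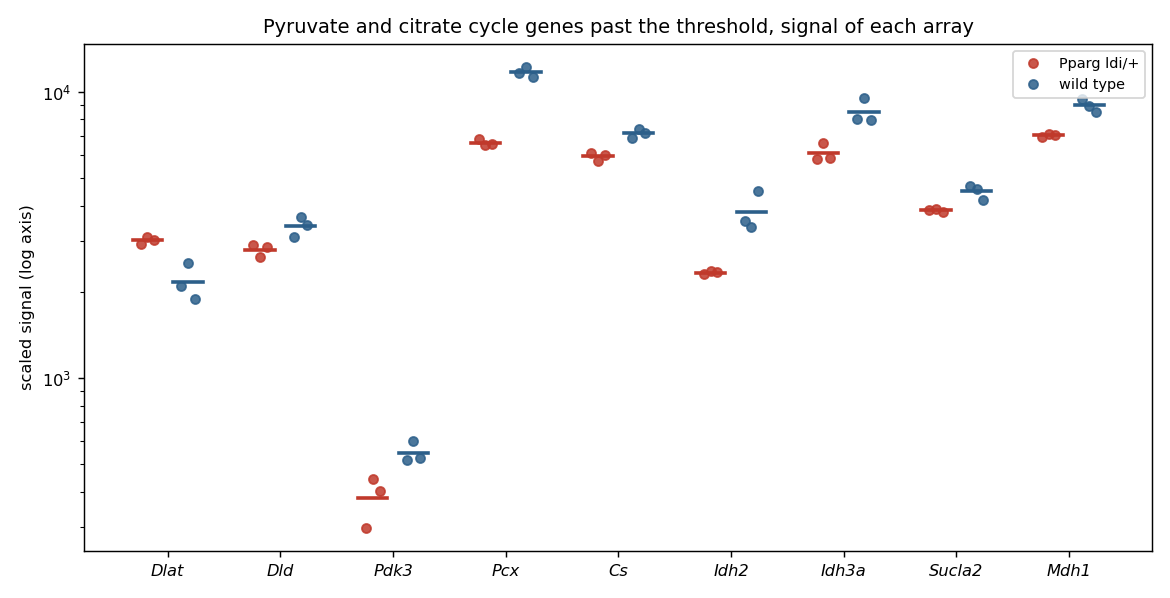
Scaled signal (log axis) on each array of the 9 genes of the pyruvate entry and citrate cycle lists past the threshold. Pparg ldi/+ is in red on the left and wild type in blue on the right, with bars at the group means. Dlat is higher and the other 8 are lower on every Pparg ldi/+ array.

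Other genes of glycolysis, the pentose phosphate pathway, pyruvate metabolism and the citrate cycle were read from a list of 43, 33 of which were tested. Of these 5 rose (15.2%) and 7 fell (21.2%), near the 16.3% and 16.4% of all genes. The citrate cycle part of this list also holds carriers, the cytosolic Aco1 and the ketone body gene Oxct1. In it 9 genes were tested, of which 0 rose and 4 fell. Those that fell were Aco1, Oxct1, Slc25a1 and Slc25a10, and no succinate dehydrogenase gene was among them. Aco1, the cytosolic aconitase that doubles as an iron sensor, gave 1405, 1411 and 1485 in Pparg ldi/+ fat, against 3307, 3253 and 3306 in wild-type fat, and fell 2.27-fold (limma adjusted p = 9.01e-06). Me1, the cytosolic malic enzyme that yields NADPH for lipid synthesis, gave 5108, 4010.0 and 4697 in Pparg ldi/+ fat, against 9787, 12385 and 8813 in wild-type fat, and fell 2.22-fold (limma adjusted p = 0.0003). The carriers that export citrate and dicarboxylates, Slc25a1 and Slc25a10, fell by 0.58 and 0.53, and Oxct1, which lets ketone bodies enter the cycle, fell by 0.65. The succinate dehydrogenase genes Sdha, Sdhb, Sdhc and Sdhd lay between -0.14 and 0.031 and did not pass. Mpc1, of the mitochondrial pyruvate carrier, was at 0.036.

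Ratios between isozymes or subunits of the same step are given as a description only, because these pairs were picked with the values in view. An exact permutation of the arrays cannot give a p-value below 0.1 here, so its results are not used. The within-array log2 ratio of Hk3 over Hk2 changed by 2.18, and that of Pfkfb4 over Pfkfb3 by 3.03. Hk2 over Hk1 changed by -0.55, Pfkl over Pfkm by 0.78, Pfkl over Pfkp by 0.63 and Ldhb over Ldha by 1.01. In mitochondria, Dlat over Dld changed by 0.76, Pdhx over Pdha1 by 1.42 and Idh3a over Idh3g by -0.57. The mitochondrial Idh2 over the cytosolic Idh1 changed by -0.83. The cytosolic Mdh1 over the mitochondrial Mdh2 changed by -0.18, and the groups overlapped in that ratio.

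Further probe sets above the filter gave the same direction for the called genes. Of the 20 genes called, 11 had at least 1 other probe set above the filter, 23 in all, and each of these 23 differed in the direction of the set read. Among the 22 genes that did not pass, 15 of 21 other probe sets had the sign of the set read. Probe sets of a gene share its RNA and are not replicates.

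The differences were also read on Pparg ldi/+ array 3 alone against the 3 wild-type arrays, since arrays 1 and 2 had the high epididymal marker sums. In that fit the lone array is assumed to vary like the wild-type group. Of 41 genes tested 7 rose and 4 fell, where 6.54% and 7.94% of all genes did. Those that rose were Hk3, Pfkl, Aldoa, Pgam1, Eno3, Pkm and Ldhb, and those that fell were Pfkfb3, Hk2, Pcx and Idh2. Their log2 differences were 2.09 for Eno3, 1.81 for Hk3, 1.34 for Ldhb, 1.06 for Pkm, 0.85 for Pfkl, 0.67 for Pgam1 and 0.48 for Aldoa. Pfkfb3 was at -2.46, Pcx at -0.83, Idh2 at -0.68 and Hk2 at -0.60. Aldoc was too dim to be tested there. The other 8 called genes no longer passed, at 0.78 for Pgk1, 0.49 for Dlat, -0.24 for Dld, -0.42 for Pdk3, -0.26 for Cs, -0.53 for Idh3a, -0.24 for Sucla2 and -0.34 for Mdh1. The differences of these 11 genes were thus present on the Pparg ldi/+ array with the lowest epididymal marker sum, and macrophage and adipocyte marker sums on that array were 101917 and 35903, close to those of arrays 1 and 2.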

How the data were processed

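Each of the 6 samples is RNA of 1 mouse, extracted with Tri Reagent and treated with DNase, per the labels' protocols, and hybridised to 1 array. The authors deposited linear intensities, 1 per probe set, made with MAS5 per the submitters' processing notes of 2 of the 6 samples. No source used here gives the version, the scaling target or detection calls. Genotype and number come from the titles.

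The deposited intensities were here multiplied to bring the 2%-trimmed mean of every array to 500, and log2 was taken after adding 32. Of 45101 probe sets 64 controls were left out, and 34945 of the rest had a single symbol in the platform annotation, updated through gene number with RefSeq (GRCm38.p6). Genes with a mean below the median of probe set means, 7.46, were not tested. The test was limma's (version 3.58.1, R 4.3.3; lmFit, eBayes with an intensity trend, two-sided, no covariates), with Benjamini-Hochberg adjustment over 11201 genes at 0.05. The method was tested on simulated data. Precision is limited by 3 mice a group.

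The genes, lists and alternatives were chosen with earlier results of these data known. Values per array are given for called genes with a log2 difference of at least 0.5 and for the 2 smallest p in each of 5 pathway steps; pathway genes outside the list were named where past the threshold. Any other gene named, or given by array, and the 11 isozyme pairs were chosen after values were seen. Lists of lymphocyte, erythroid and brown fat markers had 0, 0 and 1 gene that rose and 0, 0 and 1 that fell among 1, 1 and 3 tested. Of 5 lymphocyte markers found 4 were too dim to be tested. The lymphocyte list summed to 715 to 1218 in Pparg ldi/+ fat and 349 to 480 in wild-type fat. Brown fat markers summed to 1595 to 1970 in Pparg ldi/+ fat and 779 to 1475 in wild-type fat. Erythroid markers summed to 1273 to 1404 in Pparg ldi/+ fat and 1180 to 1951 in wild-type fat.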

Additional observations from a re-analysis of the deposited data

How the results depend on the processing

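Calls of 10 of the 20 called genes (Pfkfb3, Hk2, Hk3, Pfkl, Aldoa, Pgam1, Eno3, Pkm, Ldhb and Pcx) held in all 19 alternatives and at an adjusted p of 0.01. Aldoc was tested in 15 of the 19, kept its call there and lost it at 0.01 (adjusted p = 0.0109), as Cs, Dld, Pdk3 and Sucla2 did. The offsets, the floor and quantile normalisation changed no call among the 42 genes. With unscaled values the genes that fell were 5 and the median of the 42 was -0.012; averaging all probe sets of each gene they were 6 and 0.036. With Pparg ldi/+ array 3 alone 1616 genes of the whole table were called, 4 of the 42 fell, the median was -0.12, and 1 and 2 other pathway genes rose and fell. At a threshold of 0.01, 2238 genes were called, 6 of the 42 fell and 4 other pathway genes fell. With each array left out in turn the whole table gave 2737 to 3346 calls, 9 to 12 of the 42 rose and 7 to 10 fell, other pathway genes rose in 4 to 5 and fell in 6 to 8, and the median was -0.11 to -0.049. The title's number as a replicate block gave 3166 calls, 10 rises and 8 falls among the 42, with Dld and Sucla2 no longer passing. Same-numbered arrays of the genotypes correlated at -0.13, -0.086 and -0.095 in their deviations from group means. No positive shared deviation was seen, but these values cannot tell whether the numbers pair litter-matched mice.

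Signs turned in 14 instances. With unscaled values Hk1, Pfkm and Taldo1 were at 0.023, 0.031 and 0.012, and Mdh1 (-0.29), Cs (-0.21), Dld (-0.21), Pdk3 (-0.41) and Sucla2 (-0.16) no longer passed. With the mean of probe sets Hk1, Dld, Pdk1, Idh3b and Dlst were at 0.057, 0.12, 0.098, 0.14 and 0.012, and Idh2 (-0.39), Idh3a (-0.23) and Sucla2 (-0.34) no longer passed. Fh1 was at -0.0032 with Pparg ldi/+ array 3 alone, Pfkm at 0.0014 without Pparg ldi/+ array 1, and Taldo1 at 0.071 without wild-type array 2. With each array left out in turn Pfkm ran from -0.053 to 0.016, Pfkp from -0.0074 to 0.28 and Ldha from -0.00058 to 0.16, turning without wild-type array 3. Of these genes only Dld was called. Its mean of probe sets includes a set below the filter at 0.51, with mean signals of 35.6 in Pparg ldi/+ fat and 15.4 in wild-type fat. The causes of the other turns were not tested. Allowing cross-hybridising probe sets was added after seeing the data and changed no call among the 42. Detection calls were not used here, so it is unknown which dim probe sets exceed background.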
